A study of Mus musculus with 15 samples.

Results

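The members described here are the genes of the cytosolic ribosomal proteins and their named pseudogenes in the mouse submandibular gland, a salivary gland. They were chosen by name alone: gene names that start with Rpl or Rps and a digit, or with Rplp or Rpsa, without the Rps6k kinases. Of the 32479 genes with a count in any library, 341 met this rule, of which 92 had no -ps in the name and 249 were named as pseudogenes with -ps. By name, 54 of the 92 genes belong to the large subunit and 38 to the small subunit. Of these, Rps19bp1 is in the rule by its name only, since it encodes a partner of Rps19. Rps23rg1, named as a retrogene of Rps23, is likewise counted here by name. It is annotated with 6 exons and overlaps Rps23-ps2 on the opposite strand.

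Polyadenylated RNA was sequenced in 15 submandibular gland libraries, 5 in each of 3 groups, all labelled as wild type in genotype. Controls were ICR mice, which are outbred, without treatment. Model libraries came from NOD/LTJ mice without treatment, whose salivary glands are known to become inflamed through autoimmunity. In the SJQYD group NOD/LTJ mice received SJQYD, an agent known here by its letters alone. Model and control therefore differ in strain as well as in disease, and both the model and the SJQYD groups are set against the same control libraries, so that strain and disease cannot be told apart. Age and dose are not given in the sources used here, and since the labels only number the libraries within a group, p-values measure the spread between these samples.

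The cytosolic ribosome is built from ribosomal RNA and a set of proteins, most of which come from a single intron-containing gene that every cell transcribes at a high level. The mRNAs of these genes are also frequent substrates of reverse transcription in the germ line, which has left many processed pseudogenes: copies without introns, inserted elsewhere in the genome and often almost identical to the coding sequence. A sequenced fragment of the mRNA can match such a copy as well as the gene, so that the count of a gene and the counts of its copies depend on how the reads were assigned. For this reason each gene was examined alone, together with its named copies, and together with all copies found by sequence.

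Total counts ran from 39510018 to 68694263 per library, and a count of 3, taken as the lowest level that could be seen, corresponded to 0.0290 to 0.0840 CPM (read counts relative to library size after TMM adjustment). A single secretory transcript, Mucl2, took 15.5 to 53.8% of the counts. Markers of the submandibular gland such as Prol1, Klk1 and Aqp5 were present in every library. The summed level of 4 parotid gland markers (Amy1, Bpifa2, Smr3a and Chia1) ranged from 7.39 CPM in SJQYD 5 to 132643 CPM in model 3, with 41176 CPM in control 2 and 35098 CPM in SJQYD 1, and the calls that change without these 3 libraries are given after the comparisons. Other tissue markers varied too. Sublingual gland markers (Muc19, Agr2 and Bpifb2) summed to 9.47 CPM in SJQYD 5 and up to 5260 CPM in SJQYD 1. Their means were 1318, 1063 and 2706 CPM in the control, model and SJQYD groups, nearly all from Muc19. Agr2 was instead highest in the control group, with means of 17.0, 0.613 and 0.650 CPM. Bpifb2 was above 0 only in SJQYD 1 and SJQYD 2. Adipocyte markers (Adipoq and Plin1) summed to 32.6 CPM in model 2, 19.3 CPM in SJQYD 5 and at most 2.12 CPM elsewhere. No set of libraries was left out for these markers. Xist was at 1.01 CPM in SJQYD 3 and at 162 to 270.2 CPM in the other libraries. In a bulk sample, fewer cells of a type and less RNA per cell cannot be told apart.

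The copies that mattered most for the comparisons are shown here first, since the number of bases that separate them from the gene sets how well reads can be assigned. Each stretch has 150 bases of coding sequence, printed 5′ to 3′ on the coding strand, from the GENCODE M21 annotation of GRCm38. Capitals mark the bases that differ between the gene and its copies, and positions are counted from 1 at the A of the start codon. Rpl26, on the plus strand of chromosome 11, is shown at coding positions 157 to 306, and its processed pseudogene Gm15772 at chr5:3236587-3236736 on the plus strand. Over the whole coding length of 438 bases the copy carries 2 substitutions, C177T and T288C (gene base, position, copy base).
Rpl26: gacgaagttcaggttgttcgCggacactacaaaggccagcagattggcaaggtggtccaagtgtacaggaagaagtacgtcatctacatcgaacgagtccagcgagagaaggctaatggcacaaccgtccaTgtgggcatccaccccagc
Gm15772: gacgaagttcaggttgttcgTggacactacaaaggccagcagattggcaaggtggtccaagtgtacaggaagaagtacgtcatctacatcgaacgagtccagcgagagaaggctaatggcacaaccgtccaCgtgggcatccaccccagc

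Rpl30, on the minus strand of chromosome 15, has the processed pseudogenes Gm12191 on chromosome 11 and Rpl30-ps9 on the X chromosome, whose sequences are not shown. Gm12191 matches 99.71% and Rpl30-ps9 99.42% of the coding sequence of the gene.

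Rpsa, on the plus strand of chromosome 9, is shown at coding positions 196 to 345 with the processed pseudogene Rpsa-ps10 at chr3:150073198-150073347 on the minus strand. The copy differs by 6 substitutions, C25A, T210C, C219T, C345G, C696T and G858A, and matches 99.3% of the aligned bases.
Rpsa: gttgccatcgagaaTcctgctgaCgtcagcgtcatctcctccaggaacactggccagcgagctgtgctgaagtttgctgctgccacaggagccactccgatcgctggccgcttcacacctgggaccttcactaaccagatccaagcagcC
Rpsa-ps10: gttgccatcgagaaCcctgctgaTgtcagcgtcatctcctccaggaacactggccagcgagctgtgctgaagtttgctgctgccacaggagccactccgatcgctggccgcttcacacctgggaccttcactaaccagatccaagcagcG

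Rps2, on the plus strand of chromosome 17, and Rps2-ps13 at chrX:52898642-52898791 (plus strand) are shown at positions 55 to 204, with T60A, A84G and T204C out of 7 substitutions over 882 bases.
Rps2: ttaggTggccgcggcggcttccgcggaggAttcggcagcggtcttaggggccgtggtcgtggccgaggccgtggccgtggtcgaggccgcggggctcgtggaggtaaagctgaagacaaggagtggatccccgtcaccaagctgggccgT
Rps2-ps13: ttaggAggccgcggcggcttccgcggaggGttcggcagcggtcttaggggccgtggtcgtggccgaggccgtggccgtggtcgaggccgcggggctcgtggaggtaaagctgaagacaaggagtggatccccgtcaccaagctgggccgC

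Rps19, on the plus strand of chromosome 7, and Rps19-ps6 at chr12:110898386-110898535 (plus strand, within Tecpr2) are shown at positions 273 to 422, with T273C, G369A, G372A and C390T out of 5 substitutions.
Rps19: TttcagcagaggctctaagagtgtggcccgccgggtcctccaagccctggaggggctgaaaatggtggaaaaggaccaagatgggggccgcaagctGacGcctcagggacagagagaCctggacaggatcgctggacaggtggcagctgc
Rps19-ps6: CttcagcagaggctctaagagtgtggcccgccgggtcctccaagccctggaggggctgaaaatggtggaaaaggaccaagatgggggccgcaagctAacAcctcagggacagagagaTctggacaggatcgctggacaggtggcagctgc

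The named pseudogenes shared these features widely. In the annotation 232 of the 249 are processed pseudogenes, 245 have 1 exon, and they lie on 20 chromosomes, 28 of them on the X chromosome. For 217 of them a match to the gene of their own name was found, with a median identity of 98.0% (range 90.09 to 100%). Another gene on the same strand overlaps 31 of them (12.4%). The 83 that were too low to be tested had a median identity of 94.93%, against 98.73% for the 166 that were tested, over those with a match. By sequence, 582 further genes without a ribosomal protein name matched a coding sequence at 90% identity or more over at least 80% of its length. They were added to their families in a separate analysis, chosen after seeing the data. Among the 92 genes without -ps, the annotation lists Rpl32l, Rpl6l, Rps3a2 and Rps3a3 as processed pseudogenes. It lists Rpl37rt and Rps4l as transcribed processed pseudogenes. In the tests of single genes these were kept with the genes, so that the ribosomal protein genes below are a set by name. The named pseudogenes are a set by name too. Some of them, such as Rpl10-ps3, Rpl36a-ps1 and Rps18-ps6, are annotated as protein coding.

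Levels between genes were compared per length, as FPKM. Over the 15 libraries the highest medians were those of Rplp1, an acidic protein of the stalk that recruits elongation factors, at 804 FPKM, then Rps15 at 712, Rpl36 at 576, Rpl19 at 341 and Rps3a1 at 317. Rplp1 was at 655 ± 174 FPKM in the control group, 1043 ± 291 in the model libraries and 1062 ± 562 in the SJQYD group (SD, n = 5). These FPKM values carry no TMM adjustment, and in the tests of the counts below Rplp1 was not called in any comparison. The ranges of Rplp1 and Rps15 overlapped within each group, so that their order is not separated by the spread. The lowest medians were those of Rpl39l, with a median of 0 FPKM, Rpl3l at 0.036, Rpl21 at 0.688, Rps23rg1 at 0.81 and Rps4l at 1.43. Rpl39l and Rpl3l are paralogs with restricted expression and Rps4l is annotated as a transcribed processed pseudogene, whereas Rpl21 is a gene that every ribosome needs. In the Rpl21 family the named copies held 94.8%, 93.3% and 90.3% of the counts in the control, model and SJQYD means.

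**Figure D1:**
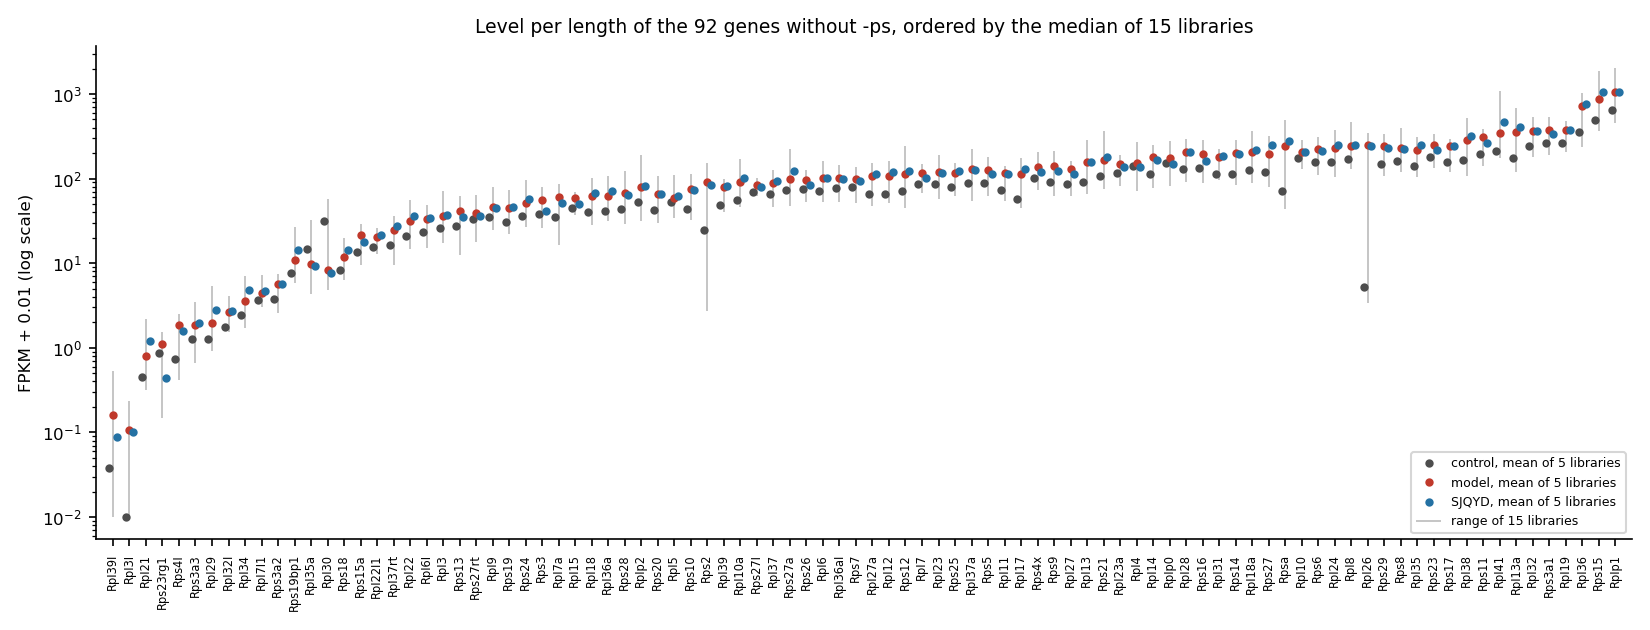
Level per length of the 92 genes without -ps, in FPKM on a log axis with 0.01 added, ordered by the median of 15 libraries. Dots are means of 5 libraries in the control, model and SJQYD groups and grey lines span the 15 libraries. Rplp1 is highest with a median of 804 FPKM, and Rpl26 stands out among the abundant genes by a control mean of 5.29 FPKM.

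Summed over the 92 genes, ribosomal protein genes were at 18530 ± 1403 CPM in the control group, 20793 ± 1805 CPM in the model libraries and 19447 ± 1859 CPM in the SJQYD libraries (SD, n = 5). T cell markers were also higher in the model mean: Cd3e, Cd3d, Cd4 and Cd8a summed to 1.35 to 24.7 CPM in the control group, 7.16 to 58.4 CPM in the model group and 2.10 to 35.9 CPM in SJQYD, with all 4 above 0 in every library. Control 2 was highest of the controls, and model 1 of the model libraries, in this marker sum and in the sum of ribosomal protein genes (20834 and 22934 CPM). Other libraries ran differently. Model 3 had 8.35 CPM of the markers and 22161 CPM of ribosomal protein genes, and model 5 had 51.5 and 20619 CPM. In the SJQYD group, SJQYD 3 was highest in the marker sum and SJQYD 2 in the sum of ribosomal protein genes (21060 CPM). The part of T cells in these sums and in the single genes was not tested. As a share of all counts, before TMM adjustment, they made up 1.48%, 2.33% and 2.36% in the group means, while Mucl2 took 48.4%, 37.3% and 36.8%. The part of the abundance of Mucl2 in these shares was not tested. Named copies held 13.5% ± 0.87 of the counts of genes and copies together in the control group, 11.9% ± 0.60 in the model group and 11.9% ± 1.20 in the SJQYD group. With the copies found by sequence the shares were 21.3%, 18.8% and 19.0%.

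In 31 families the named copies held at least 5% of the family's counts in 1 group mean or more. In several large families the group means of this share lay close together. Copies held 92.6%, 93.3% and 91.8% of the Rps18 family in the control, model and SJQYD means, 93.5%, 93.4% and 92.1% of the Rpl34 family, and 27.8%, 27.1% and 26.0% of the Rpl36a family. The Rps18 share includes the counts of Rps18-ps4, a copy by name only, which is described below. In the families of Rpsa, Rpl30, Rps19 and Rps24 the group means lay further apart. In each of them the share in all 5 control libraries lay outside the range of the NOD/LTJ libraries. How many of the 31 families, or of all genes, separate in this way is not given here. The separation is therefore not shown to be particular to these families. The copies' share in the Rpsa family was 58.5% in the control mean, 4.29% in the model mean and 4.23% in the SJQYD mean. In the other direction, the share in the Rpl30 family was 16%, 65.0% and 67.0%, in the Rps19 family 10.4%, 33.2% and 35.2%, and in the Rps24 family 5.86%, 16.7% and 16.1%. The share in the Rps2 family was 79.2%, 44.7% and 47.5%, and in the Rpl35a family 66.5%, 85.6% and 86.5%, and in both the control range overlapped that of the NOD/LTJ libraries.

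In the other families named copies held, in the control mean, 73.7% of Rpl17, 64.8% of Rpl7a, 40.7% of Rpl3, 38.8% of Rps12, 35.0% of Rps7, 30.5% of Rps10, 21.4% of Rpl15 and 20.0% of Rpl9. They held 16.8% of Rpl14, 16.2% of Rpl23a, 16.1% of Rpl38, 13.6% of Rps27a, 11.9% of Rps6, 11% of Rps16 and 10.2% of Rpl10. The lowest shares were 9.29% in Rpl31, 8.84% in Rpl29, 7.49% in Rpl27, 6.23% in Rpl10a and 4.97% in Rpl28. In the Rps13 family the share was 17.0% in the control mean, 9.43% in the model mean and 20.0% in the SJQYD mean.

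**Figure D2:**
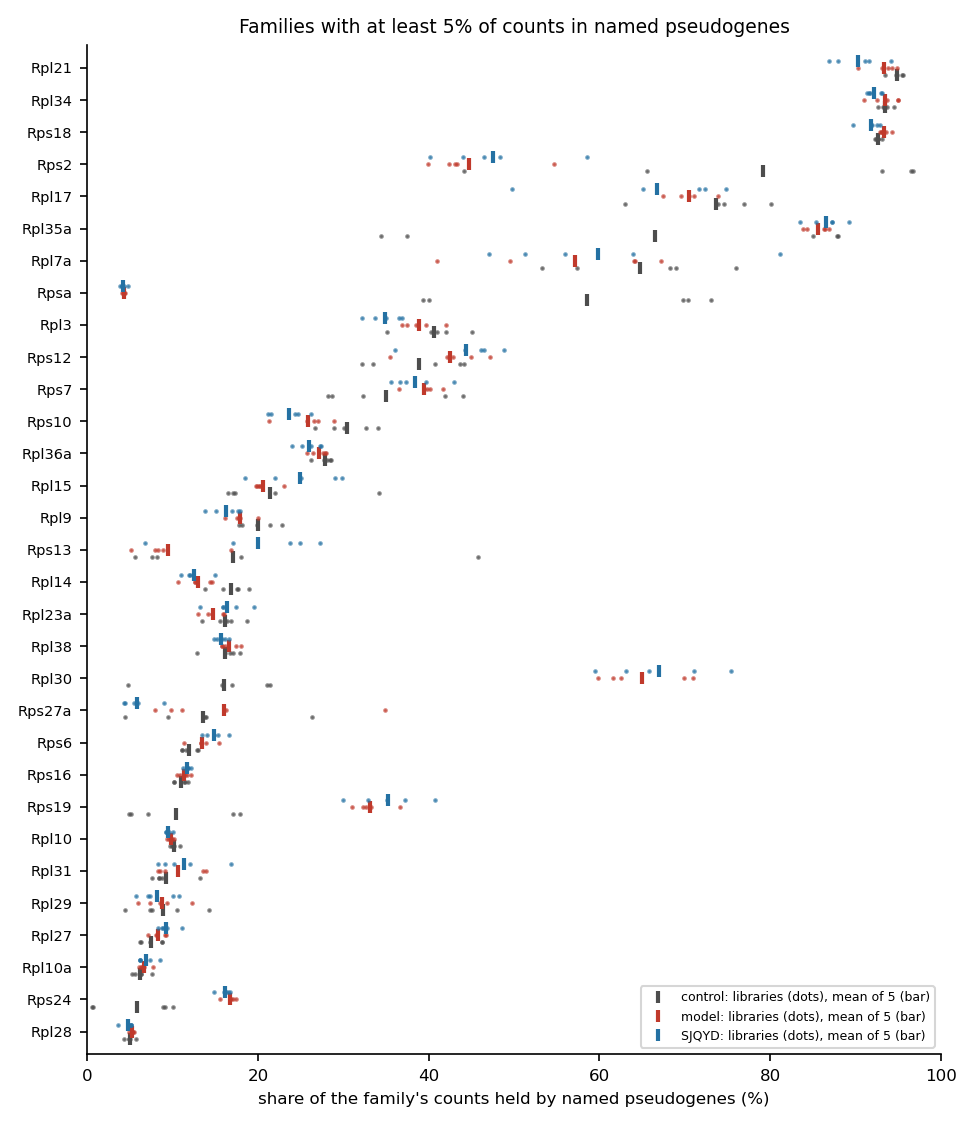
Share of a family's counts held by named pseudogenes, in percent, for the 31 families with at least 5% in a group mean. Dots are libraries and bars are means of 5 in the control, model and SJQYD groups. The control dots of Rpsa lie between 39.3% and 73.1%, against 4.13% to 4.41% in the model libraries, and those of Rpl30, Rps19 and Rps24 lie below the other groups.

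Between model and control, the question is how untreated NOD/LTJ mice differ from ICR mice. Of the 91 ribosomal protein genes tested, 4 rose (Rpl26, Rpl36, Rpl3l and Rpsa) and 1 fell (Rpl30), which is 5.49% beside 5.07% of all 18136 genes tested (edgeR quasi-likelihood F test, Benjamini-Hochberg adjusted p under 0.05). Of all genes 2.57% rose and 2.5% fell, so that the members' share is near the background. Rpl3l, at 0 counts in every control, entered the test through the NOD/LTJ libraries alone, so that its call could only be a rise. The median log2 fold change of the genes was 0.11, beside 0.03 over all genes, with 68 of 91 values positive. Among the 166 named pseudogenes tested, 12 rose and 4 fell (9.64%, median log2 fold change 0.23), and these 16 came from 7 families. The count of genes was 3 without control 1, 4 or 5 or without model 1, 2 or 5, and that of pseudogenes was 10 without control 1, 3 or 4, 9 without model 1 and 8 without control 5 or model 2. A count of 3 genes is 3.3% of those tested, and these pseudogene counts are 4.73 to 5.95%. In these fits 1.92 to 3.17% of all genes were called. On the FPKM scale, where the median of all genes was shifted by 0.28 with a pseudocount of 1, limma called 12 genes higher and 1 lower (14.4%) and 41 pseudogenes higher and 2 lower (28.9%), beside 11.6% of 12436 genes, 1407 higher and 40 lower.

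Rpl26, a large subunit protein beside the tunnel through which the new peptide leaves, rose most among the called genes that had counts in every library. Its control libraries, in the order 1 to 5, had 12.2, 8.63, 8.10, 13.2 and 14.4 CPM, the model libraries 407, 403, 376, 337 and 358 CPM, and the SJQYD libraries 320, 419, 313, 368 and 312 CPM. All 10 NOD/LTJ libraries were far above all controls, and model and SJQYD overlapped. The model was 33.3-fold higher than control (log2 5.06 ± 0.18 SE, edgeR adjusted p = 1.28e-11). The intronless copy Gm15772 moved the opposite way. It had 317, 336, 360, 313 and 318 CPM in the control libraries, 18.8, 20.3, 20.3, 17.6 and 18.1 CPM in the model libraries and 13.4, 19.2, 13.7, 17.9 and 16.4 CPM in the SJQYD libraries. Every control was above every NOD/LTJ library, with a log2 fold change of -4.11 ± 0.13 (edgeR adjusted p = 9.86e-13).

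The sum of Rpl26 and its sequence-matched copies did not pass the test. It was 334, 350, 373, 329 and 335 CPM in the control libraries, 430, 428, 401, 358 and 380 CPM in the model libraries and 338, 444, 330, 390 and 332 CPM in the SJQYD libraries. The model values reached down to 358 CPM and the controls up to 373 CPM, so that the groups overlapped. The log2 fold change of the sum was 0.22 ± 0.11 (edgeR adjusted p = 0.276, range over the alternatives 0.176 to 0.444). Copies held 96.7% of this sum in the control mean and 5.80% in the model mean. With only 2 copies named after it, both near 0, the family summed by name kept the log2 fold change of 5.05, since Gm15772 does not carry the name of Rpl26.

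Rpl30, a large subunit protein at the boundary of the subunits, fell. Its control libraries had 98.6, 201, 118, 118 and 144 CPM, the model libraries 31.4, 20.6, 28.1, 17.8 and 32.6 CPM, and the SJQYD libraries 21.7, 19.6, 31.9, 19.9 and 20.4 CPM. All controls were above all NOD/LTJ libraries, and the model was 5.20-fold lower (log2 -2.38 ± 0.22 SE, edgeR adjusted p = 9.60e-06). Both of these close copies were higher instead. Gm12191 was at 30.7, 11.9, 20.8, 29.2 and 23.7 CPM in the control group, at 116, 93.4, 99.8, 92.8 and 104 CPM in the model libraries and at 75.6, 101, 98.5, 83.0 and 83.3 CPM in the SJQYD group. This rise without overlap was 2.12 ± 0.20 on the log2 scale (edgeR adjusted p = 9.52e-06).

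Rpl30-ps9 was at 3.67, 1.21, 4.66, 3.68 and 3.89 CPM in the control libraries, at 22.6, 21.2, 20.5, 18.7 and 20.8 CPM in the model libraries and at 16.2, 23.6, 19.9, 19.9 and 17.3 CPM in the SJQYD libraries. It too rose without overlap, by 2.61 ± 0.25 on the log2 scale (edgeR adjusted p = 1.50e-05). Gene and named copies together still fell, with a log2 fold change of -1.12 ± 0.15 (edgeR adjusted p = 0.00048). With Gm12191 and the other sequence-matched copies added, the family sum had a log2 fold change of -0.06 ± 0.12 (edgeR adjusted p = 0.818, range over the alternatives 0.680 to 0.979). The summed levels overlapped, at 157 to 224 CPM in the control group and 154 to 199 CPM in the model group.

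Rpsa is a small subunit protein that also serves as a receptor for laminin at the cell surface. Control libraries had 477, 526, 229, 199 and 218 CPM, model libraries 955, 709, 914, 637 and 825 CPM, and SJQYD libraries 993, 949, 850, 745 and 602 CPM. Controls 1 and 2 were above the other controls and below every NOD/LTJ library, and the model was 2.45-fold higher (log2 1.29 ± 0.26 SE, edgeR adjusted p = 0.0115). Rpsa-ps10 fell from 300, 322, 589, 446 and 473 CPM in the control libraries to 24.7, 19.1, 25.5, 17.8 and 21.5 CPM in the model libraries, and the SJQYD libraries had 27.8, 23.2, 21.9, 22.6 and 15.0 CPM. The 2 controls with the most Rpsa had the least Rpsa-ps10, and the groups did not overlap for either. Rpsa-ps10 was 19.6-fold lower in the model (log2 -4.29 ± 0.22 SE, edgeR adjusted p = 1.88e-09).

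Other Rpsa copies were called at lower levels. Rpsa-ps7 fell by 1.56 on the log2 scale, from a mean of 14.6 CPM to 4.94 CPM, and Rpsa-ps9 fell by 1.67, from 3.84 CPM to 1.21 CPM. Rpsa-ps5, at 92.36% identity the most diverged of them, rose from 0.0839 CPM to 0.486 CPM (edgeR adjusted p = 0.0289), a call that was lost without control 4 or 5 or model 2, 3 or 5 (adjusted p up to 0.069). The sum of Rpsa and its matched copies had a log2 fold change of 0.12 ± 0.16 (edgeR adjusted p = 0.722, range over the alternatives 0.519 to 0.910). It ran from 674 to 866 CPM in the control group and from 667 to 998 CPM in the model group, and so overlapped.

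**Figure D3:**
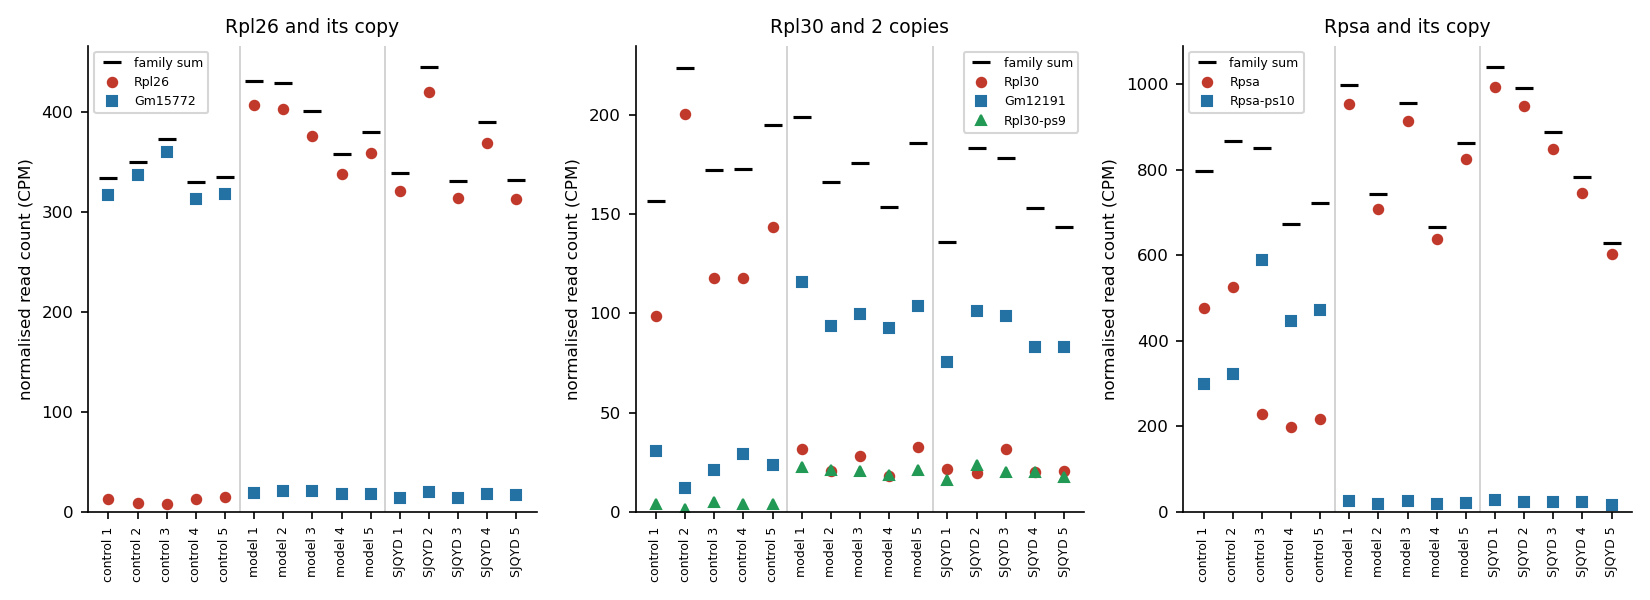
Normalised read counts (CPM) of Rpl26, Rpl30 and Rpsa and their closest copies in each of the 15 libraries, with the sum of the gene and all sequence-matched copies as black bars. In the control libraries most counts of the Rpl26 family lie on Gm15772, at 313 to 360 CPM, and in the others on Rpl26, at 312 to 419 CPM. The black bars of the groups overlap in all 3 panels.

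Of the genes called with the counts of a single locus, Rpl36 and Rpl3l were also called as families with their sequence-matched copies. Rpl36, a large subunit protein, was at 175, 229, 230, 186 and 172 CPM in the control libraries, 275, 337, 280, 272 and 274 CPM in the model libraries and 253, 369, 274, 318 and 256 CPM in the SJQYD libraries. No control reached a model or SJQYD library. The rise of 1.45-fold (log2 0.53 ± 0.13 SE, edgeR adjusted p = 0.0309) was 0.54 for the family with its copies, which held 3.56% of the control counts (edgeR adjusted p = 0.0314). For the gene the call was lost without control 1, 4 or 5 or model 1, 2, 3 or 5 (adjusted p up to 0.088), with the same direction.

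Rps19, a small subunit protein in which mutations cause Diamond-Blackfan anaemia, did not pass the test alone. It was at 199, 268, 210, 177 and 196 CPM in the control libraries and 240, 216, 216, 197 and 240 CPM in the model libraries, and these ranges overlapped (log2 0.08 ± 0.12 SE, edgeR adjusted p = 0.747). Its copies rose. Rps19-ps6 was at 33.6, 9.40, 5.42, 31.6 and 9.15 CPM in the control libraries, 120, 91.5, 90.1, 83.0 and 94.7 CPM in the model libraries and 92.9, 127, 82.9, 93.5 and 91.0 CPM in the SJQYD libraries. Controls 1 and 4 were above the other controls, and all NOD/LTJ libraries were higher still. The model was 5.38-fold higher (log2 2.43 ± 0.43 SE, edgeR adjusted p = 0.00851). Rps19-ps1, Rps19-ps2 and Rps19-ps5 also rose, by 2.22, 2.10 and 2.62 on the log2 scale, from control means of 0.911, 1.28 and 0.0436 CPM. For Rps19-ps5 the call was lost without control 1 or 5 or model 1 or 2 (adjusted p up to 0.0754).

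The Rps19 family as a sum rose. It was at 240, 283, 221, 215 and 211 CPM in the control libraries and 379, 324, 321, 292 and 348 CPM in the model libraries, without overlap (log2 0.51 ± 0.12 SE, edgeR adjusted p = 0.0204). The call was lost without control 3, 4 or 5 or model 1 (adjusted p up to 0.0557) and in a fit of only the 2 groups. In the Rps12 family, Rps12-ps4 and Rps12-ps9 rose by 0.54 and 0.74 on the log2 scale, calls that were lost without 11 and 6 of the 15 libraries. Rps15-ps3 and Rps2-ps8 rose by 0.84 and 0.40 on the log2 scale, and each of these calls was lost without 11 libraries.

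Over the 85 families tested with their sequence-matched copies, 4 rose between model and control (Rpl13a, Rpl36, Rpl3l and Rps19) and none fell, beside 4.93% of the 17701 features tested in that fit (2.48% higher, 2.45% lower); 14 families had an unadjusted p under 0.05. The family of Rpl13a, a large subunit protein also known for a part in translational control by interferon, passed at an adjusted p of 0.0499, against 0.0509 for the gene alone. Rpl26, Rpl30 and Rpsa were called as genes and not as families matched by sequence. The number of families called was 0 without control 4, control 5 or model 1, 1 without control 1, control 3, model 2 or model 5, and 2 without model 3 or SJQYD 1, 2, 3 or 4. With families summed by name only, 4 rose and 1 fell (Rpl30) of 91, beside 4.95% of 17970 features (2.49% higher, 2.47% lower). That count was 3 without control 1, control 3, model 2 or model 5 and 2 without control 4, control 5 or model 1.

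**Figure D4:**
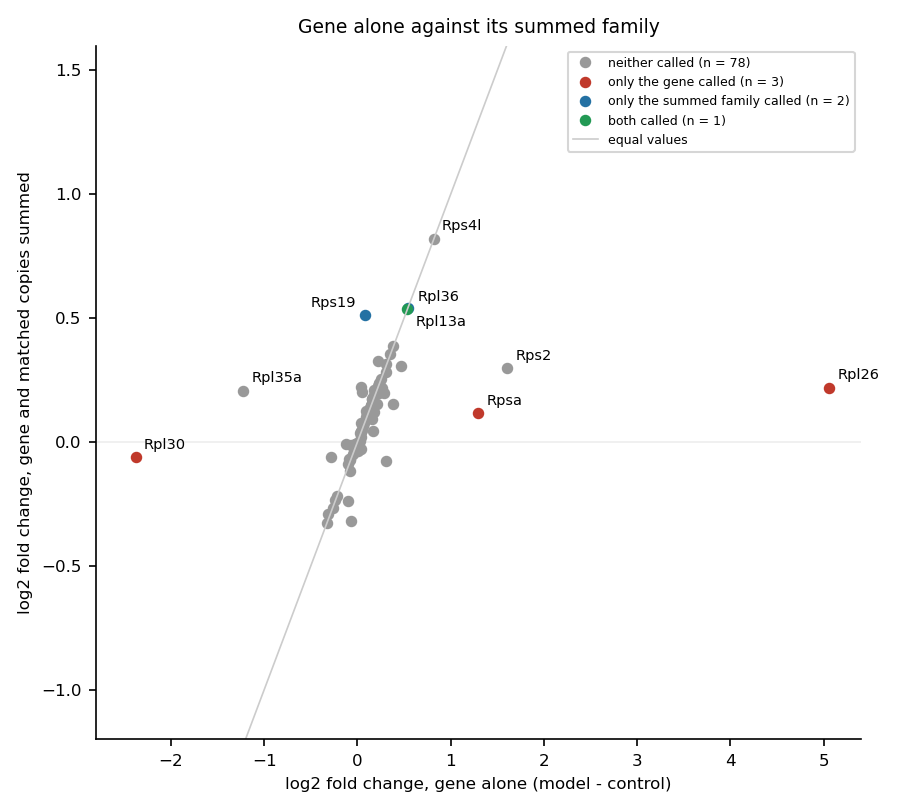
Log2 fold change of model against control for 84 genes alone (horizontal axis) and for the gene summed with its sequence-matched copies (vertical axis, on a wider scale), with a line of equal values. Rpl3l, at 0 counts in all controls, is not drawn. Rpl26, Rpl30 and Rpsa are called alone at 5.06, -2.38 and 1.29 and lie at 0.22, -0.06 and 0.12 as families.

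Rpl3l, a paralog of Rpl3 used in striated muscle, was at 0 counts in all 5 control libraries. Model libraries had 0.331, 0.0876, 0, 0.262 and 0.182 CPM, from 57 counts in all, and SJQYD libraries 0.0387, 0.347, 0.279, 0.0378 and 0.105 CPM, from 46 counts. Model 3 was at 0 like the controls. Rpl3l thus passed the filter on low counts through the NOD/LTJ libraries alone, and a call against control could only be a rise. It is kept in the counts of genes and families that rose in both comparisons with control. Against a floor of 3 counts over the control group, the model was at least 13.2-fold and the SJQYD group at least 11.1-fold higher. The call against control (edgeR adjusted p = 0.0476) was lost without 12 of the 15 libraries (adjusted p up to 0.0959), all but control 2, model 3 and SJQYD 1. The sum of 3 skeletal muscle markers (Ckm, Acta1, Myh4) was 2.39 to 3.17 CPM in the control group, 2.46 to 2.94 CPM in the model libraries and 2.25 to 3.72 CPM in the SJQYD libraries, nearly all from Ckm, with Myh4 at 0 in 10 of the 15 libraries. Acta1 alone had means of 0.0413, 0.176 and 0.199 CPM in the control, model and SJQYD groups. Of the controls only control 4 had Acta1 above 0, at 0.207 CPM, and model 3 and model 5 were at 0. The part of muscle in the counts of Rpl3l was not tested.

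Some members differed among the 5 controls as much as between strains. Rps2, a small subunit protein, had 9.79, 160, 18.5, 7.66 and 96.7 CPM in the control libraries, 184, 120, 221, 191 and 172 CPM in the model libraries and 178, 104, 160, 141 and 139 CPM in the SJQYD libraries. Controls 2 and 5 lay in or near the range of the NOD/LTJ libraries, and controls 1, 3 and 4 far below it. The gene did not pass the test (log2 1.6 ± 0.70 SE, edgeR adjusted p = 0.205). Rps2-ps13 ran the other way, with 125, 41.3, 143, 137 and 96.9 CPM in the control libraries, 45.8, 46.9, 53.3, 42.4 and 43.0 CPM in the model libraries and 39.6, 47.7, 40.9, 43.1 and 38.9 CPM in the SJQYD libraries. It was low in control 2, at the level of the NOD/LTJ libraries, and high in the other 4 controls. It fell by 1.23 ± 0.23 on the log2 scale (edgeR adjusted p = 0.00866), with overlapping groups.

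The Rps2 family as a sum ran from 307 to 391.8 CPM in the control libraries and from 389.8 to 522 CPM in the model libraries (log2 0.30 ± 0.11 SE, edgeR adjusted p = 0.12, and called by DESeq2 at an adjusted p of 0.0279). Rps2-ps6 rose by 1.14 ± 0.31 on the log2 scale (edgeR adjusted p = 0.045), a call that was lost without any single library other than control 2 or model 4 (adjusted p up to 0.101). Rpl35a, a large subunit protein, had 156, 37.7, 187, 21.9 and 22.8 CPM in the control libraries, 41.9, 36.4, 39.4, 28.4 and 36.1 CPM in the model libraries and 28.0, 40.1, 27.8, 45.3 and 22.2 CPM in the SJQYD libraries. Controls 1 and 3 were high, control 2 lay among the NOD/LTJ libraries, and controls 4 and 5 at or just below their lower end (log2 -1.22 ± 0.55 SE, edgeR adjusted p = 0.218). Its family sum was 238 to 331 CPM in the control group and 284 to 350 CPM in the model group.

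Rps24-ps3, on the X chromosome, had 1.71, 38.0, 1.95, 35.0 and 32.2 CPM in the control libraries, 83.0, 54.0, 71.8, 64.9 and 66.7 CPM in the model libraries and 76.6, 70.3, 80.1, 53.5 and 51.0 CPM in the SJQYD libraries. The controls fell into low values in libraries 1 and 3 and higher ones in 2, 4 and 5, all below the NOD/LTJ libraries, and the copy did not pass the test (log2 1.64 ± 0.69 SE, edgeR adjusted p = 0.188). Rps18-ps4 and Rps18-ps6 overlap on opposite strands of chromosome 13, at 97751112 to 97760965 on the plus strand and 97760072 to 97760632 on the minus strand. The annotation lists Rps18-ps4 as a long noncoding RNA gene with 3 exons. No match of Rps18-ps4 to the coding sequence of Rps18 was found, so that it is a copy by name only. In control 4 and 5 and SJQYD 2 and 4 the counts were on Rps18-ps4, at 197 to 210 CPM, with 0 counts of Rps18-ps6. In the other 11 libraries Rps18-ps6 had 125 to 238 CPM, while Rps18-ps4 had 24 counts in SJQYD 1 and 0 in the rest. The sum of both was 125 to 238 CPM, so that the strand partners cannot be told apart in these counts.

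**Figure D5:**
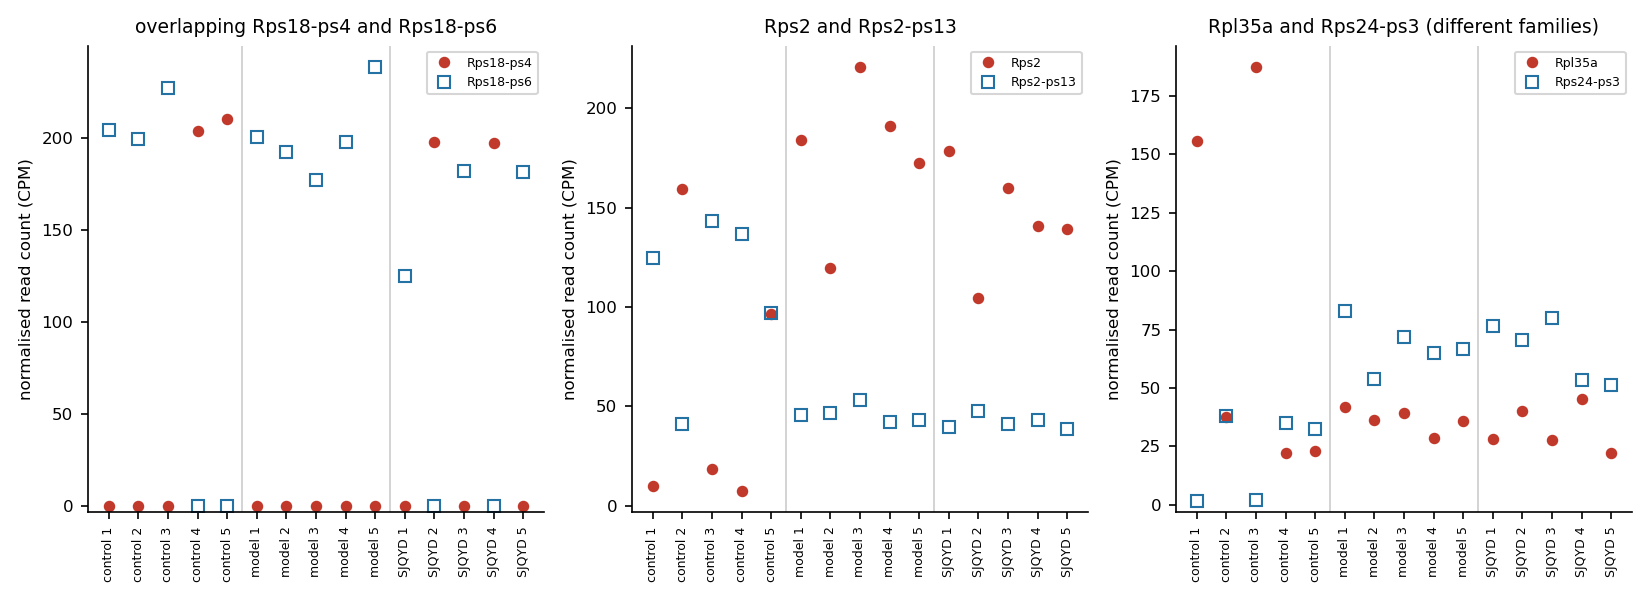
Normalised read counts (CPM) in each of the 15 libraries for Rps18-ps4 with Rps18-ps6, for Rps2 with Rps2-ps13, and for Rpl35a with Rps24-ps3, which belong to different families. In each library either Rps18-ps4 or Rps18-ps6, which overlap, is at or near 0, and the control libraries split into high and low values for Rps2 and Rpl35a.

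Between SJQYD and model, the comparison is between treated and untreated NOD/LTJ mice. Of the 91 genes without -ps that were tested, only Rps23rg1 was called, and it fell. This is 1.1% of 91 beside 2.75% of all genes tested, of which 1.91% rose and 0.838% fell. Unadjusted, 16 genes had a p under 0.05, and DESeq2 called 6, all lower, which is 6.59% beside 5.91% of all genes with DESeq2. The median log2 fold change of the genes was -0.10, beside -0.03 over all genes, with 67 of 91 values negative. None of the 166 named pseudogenes was called by edgeR, with 10 at an unadjusted p under 0.05 and 1 called by DESeq2. The count of genes was 0 without model 5 or SJQYD 2, 2 without model 4 or SJQYD 3, and 0 without the 3 libraries high in parotid markers. A count of 2 is 2.2% of the genes, beside 2.7% of all genes without model 4 and 2.08% without SJQYD 3.

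Rps23rg1 had 2.07, 3.61, 3.04, 3.39 and 4.52 CPM in the model libraries and 1.58, 0.585, 1.52, 1.49 and 0.507 CPM in the SJQYD libraries, and 4.25, 4.88, 3.74, 2.57 and 1.97 CPM in the control libraries. The SJQYD libraries lay below both other groups, and SJQYD 2 and 5 were the lowest. Rps23rg1 was 2.91-fold lower than in the model (log2 -1.54 ± 0.35 SE, edgeR adjusted p = 0.0225), a call lost without model 2, model 5 or SJQYD 2 (adjusted p up to 0.0588). Summed with its matched copies it fell by 1.05 ± 0.26 on the log2 scale (edgeR adjusted p = 0.0368, lost without model 2, 3, 4 or 5 or SJQYD 1, 2, 4 or 5, up to 0.167 over the alternatives). The pairs described above did not follow the treatment: Rpl26 differed by -0.12 ± 0.15, Rpl30 by -0.20 ± 0.21 and Rpsa by 0.03 ± 0.26 on the log2 scale between SJQYD and model, with edgeR adjusted p values of 0.781, 0.704 and 0.972.

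Rps3, a small subunit protein at the channel where the mRNA enters, has no copy in either family list. It had 315, 194, 278, 233 and 308 CPM in the model libraries and 173, 177, 223, 189 and 146 CPM in the SJQYD libraries, which overlap through model 2 and SJQYD 3. Its log2 fold change of -0.55 ± 0.14 had an edgeR adjusted p of 0.0505 among single genes and 0.0477 in the fit with matched families, where fewer features were tested. Of 85 matched families, Rps23rg1 and Rps3 fell between SJQYD and model, beside 2.93% of all features (2.02% higher, 0.91% lower), with 11 at an unadjusted p under 0.05. This count was 1 without any 1 control or without model 1, 2 or 4, 0 without model 3 or 5 or SJQYD 1, 2, 4 or 5, and 0 without the 3 libraries high in parotid markers. Summed by name, the same pair fell of 91 families, beside 2.82% of features (1.95% higher, 0.868% lower), and this count was 0 without model 5 or SJQYD 2 and 1 without any 1 control, model 1, 2 or 3 or SJQYD 1, 4 or 5.

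Between SJQYD and control, which differ in strain and treatment and share the controls with the first comparison, 6 genes rose and 6 fell, 13.2% of 91 beside 11.1% of all genes tested, of which 5.22% rose and 5.9% fell. The count was 7 (7.69%) without control 5 or SJQYD 2, beside 6.67% and 7.03% of all genes. Higher were Rpl13a, Rpl21, Rpl26, Rpl36, Rpl3l and Rpsa, and lower were Rpl30, Rpl4, Rplp0, Rps23rg1, Rps26 and Rps3. The median log2 fold change of the genes was 0.03, beside 0.04 over all genes. Among pseudogenes 14 rose and 11 fell (15.1%), from 12 families. Without control 2, 39 were called (23.2%), beside 14.2% of 18535 genes tested in that fit. On the FPKM scale, where the median of all genes was shifted by 0.33 with a pseudocount of 1, 34 genes were called higher and 1 lower (38.9%) and 70 pseudogenes higher and 2 lower (48.3%), beside 29.2% of 12436 genes, 3538 higher and 88 lower.

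Within this comparison Rpl26 was 30.6-fold higher, Rpsa 2.51-fold higher and Rpl30 5.98-fold lower. As sums with their matched copies these 3 families had log2 fold changes of 0.10 ± 0.11, 0.15 ± 0.16 and -0.21 ± 0.12, with edgeR adjusted p values of 0.651, 0.607 and 0.298. Rpl21 had 2.04, 2.03, 2.29, 2.78 and 1.87 CPM in the control libraries and 4.73, 4.51, 2.39, 3.40 and 4.89 CPM in the SJQYD libraries, overlapping through SJQYD 3. It rose by 0.85 ± 0.22 on the log2 scale (edgeR adjusted p = 0.0218, lost without control 5 or SJQYD 1, 2 or 5, up to 0.0592). Its matched family, at 368 to 418 CPM in the control group and 374 to 565 CPM in the SJQYD group, had a log2 fold change of 0.20 ± 0.12 (edgeR adjusted p = 0.323).

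Rplp0 anchors the stalk of the large subunit and carries Rplp1 and Rplp2. It was at 405, 339, 313, 381 and 410 CPM in the control libraries, 343, 214, 363, 322 and 276 CPM in the model libraries and 292, 192, 277, 176 and 207 CPM in the SJQYD libraries. No SJQYD library reached the controls, and the gene fell by 0.69 ± 0.17 on the log2 scale against control (edgeR adjusted p = 0.0156). With its matched copies, above all the processed pseudogene Gm8730 on chromosome 8, the family had a log2 fold change of -0.41 ± 0.15 (edgeR adjusted p = 0.0993). Copies held 12.9% of this family in the control mean, 25.5% in the model mean and 28.6% in the SJQYD mean. Rplp1 and Rplp2 did not pass the test, with log2 fold changes of 0.07 ± 0.15 and -0.01 ± 0.28.

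Rpl4, which lines the peptide tunnel, had 381, 425, 303, 441 and 471 CPM in the control libraries and 348, 232, 297, 186 and 202 CPM in the SJQYD libraries, with SJQYD 1 among the controls. It fell by 0.68 ± 0.19 on the log2 scale (edgeR adjusted p = 0.0302, lost without control 1, 4 or 5 or SJQYD 2, 4 or 5, up to 0.0794). Rps26, which lies near the channel where the mRNA leaves, had 157, 178, 175, 175 and 160 CPM in the control libraries and 125, 130, 145, 121 and 109 CPM in the SJQYD libraries. All SJQYD libraries were below all controls, with a log2 fold change of -0.42 ± 0.10 (edgeR adjusted p = 0.015). Rps3 fell by 0.47 ± 0.14 (edgeR adjusted p = 0.0426), a call lost without any 1 control, model 3 or SJQYD 1, 2, 4 or 5. For Rps26 and Rps3 the direction was the reverse on the FPKM scale, where the log2 fold changes were 0.12 and 0.07, below the shift of all genes.

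Rpl13a had 489, 647, 601, 463 and 466 CPM in the control libraries, 908, 728, 801, 644 and 791 CPM in the model libraries and 922, 939, 831, 740 and 623 CPM in the SJQYD libraries. Control 2 overlapped the lowest library of either other group. The rise against control was 0.60 ± 0.15 on the log2 scale for SJQYD (edgeR adjusted p = 0.018, lost without control 5 or SJQYD 2, up to 0.0539).

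Copies of Rpl10 and Rpl7a were also lower in SJQYD than in control. Rpl10-ps1, Rpl10-ps3 and Rpl10-ps6 fell by 0.63, 0.36 and 0.56 on the log2 scale, and Rpl10 itself had 516, 525, 576, 476 and 574 CPM in the control libraries and 377, 426, 408, 451 and 432 CPM in the SJQYD libraries (log2 -0.35 ± 0.12 SE, edgeR adjusted p = 0.0736). Rpl10-ps1 and Rpl10-ps3 match the coding sequence of Rpl10 at 100% identity, so that reads from these loci cannot be told apart over the coding sequence. Rpl7a-ps3 and Rpl7a-ps11 fell by 0.96 and 0.46, and Rpl14-ps1 fell by 0.52. The calls of Rpl10-ps3 and Rpl7a-ps11 were lost without 11 and 8 of the 15 libraries (adjusted p up to 0.116 and 0.111). On the FPKM scale Rpl10-ps3, Rpl14-ps1 and Rpl7a-ps11 had log2 fold changes of 0.18, 0.04 and 0.08, the reverse direction and below the shift of all genes. Rps12-ps13, Rpl36a-ps1 and Rps6-ps1, each below 3 CPM in the SJQYD mean, rose by 1.16, 1.10 and 0.85, and the calls of Rps12-ps13 and Rps6-ps1 were lost without 7 libraries each, controls 1, 3, 4 and 5 and SJQYD 1, 2 and 4.

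Of 85 matched families, 5 rose (Rpl13a, Rpl36, Rpl3l, Rps15 and Rps19) and 4 fell (Rpl4, Rps23rg1, Rps26 and Rps3) between SJQYD and control, beside 11.1% of all features (5.23% higher, 5.84% lower). The count was 5 without control 1 or control 4 and 3 without control 5 or SJQYD 2. Families summed by name gave 5 that rose and 6 that fell of 91, beside 11% of features (5.19% higher, 5.85% lower). That count was 7 without control 4 and 6 without control 5 or SJQYD 2.

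Without control 2, model 3 and SJQYD 1, the libraries high in parotid markers, 8.36% of 18035 genes were called between model and control. Among the members 5 genes rose and 1 fell (6.59%), with 10 pseudogenes higher and 7 lower (10.4%). For SJQYD against control 6 genes rose and 5 fell (12.1%), with 22 pseudogenes higher and 8 lower (18.4%), beside 10.9% of all genes. Of the 59 called values of named members, 13 no longer passed, all in the same direction. Between model and control these included Rps12-ps4, Rps12-ps9, Rps15-ps3, Rps2-ps8 and Rpsa-ps5 (edgeR adjusted p of 0.0507 to 0.0901), and between SJQYD and model Rps23rg1 (0.0574). Those lost for SJQYD against control were Rpl10-ps3, Rpl21, Rpl7a-ps3, Rpl7a-ps11, Rps3 and Rps6-ps1 (0.0528 to 0.105). As matched families Rps15, Rps26 and Rps3 also lost their calls in that comparison (0.0576, 0.0571 and 0.108), while Rps26 as a single gene kept its call. Newly called were Rpl13a, Rpl10-ps1, Rpl10-ps6 and Rps2-ps10 between model and control, and Rps27 and Rps2-ps8 between SJQYD and control.

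The minor paralogs, with Rps4l counted among them by its name, were measured beside their main forms. Rpl22l1 was at 45.6 ± 8.53, 42.8 ± 4.41 and 42.8 ± 8.16 CPM in the control, model and SJQYD groups (SD, n = 5), and Rpl7l1 at 19.2 ± 2.01, 16.4 ± 1.69 and 16.2 ± 0.992 CPM. Rpl36al was at 152 ± 14.6, 144 ± 8.82 and 132 ± 13.9 CPM, Rps27l at 86.1 ± 17.2, 72.7 ± 16.4 and 68.8 ± 18.0 CPM and Rps4l at 1.09 ± 0.508, 1.92 ± 0.562 and 1.48 ± 0.395 CPM. None of these 5, nor Rpl22, Rpl7, Rpl36a, Rps27 or Rps4x, was called in any comparison with edgeR over all 15 libraries, and the groups overlapped for each of the 5 paralogs. Of the main forms, Rpl3 was at 121 ± 20.5 CPM and Rpl39 at 103 ± 13.2 CPM in the control group. Rpl39l, seen in 7 libraries at up to 0.467 CPM, was too low to be tested. Rps19bp1 was at 12.1 ± 0.677, 12.5 ± 1.29 and 14.4 ± 3.42 CPM and was not called.

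Other genes of the pathway were read from the same fit. Of 18 elongation factors and other mRNAs that carry the 5′ terminal oligopyrimidine tract of ribosomal protein mRNAs, edgeR called none between model and control or between SJQYD and model, with 5 and 6 at an unadjusted p under 0.05, and 4 that fell between SJQYD and control (22.2%, beside 11.1% of all genes called and 5.9% lower). These were the elongation factors Eef1a1 (log2 -0.57) and Eef2 (-0.69) and the genes Tpt1 (-0.46) and Btf3 (-0.44). Of 26 ribosome assembly genes, 2 were called between model and control (7.69%, beside 5.07% of all genes), 1 between SJQYD and model (3.85%, beside 2.75%) and 5 between SJQYD and control (19.2%, beside 11.1%). Nop10, a protein of the box H/ACA particles that modify ribosomal RNA, fell between model and control by 0.67 ± 0.11 on the log2 scale, from 24.0 ± 3.81 to 15.1 ± 1.36 CPM (edgeR adjusted p = 0.00348). Rrs1 fell by 0.62 (edgeR adjusted p = 0.0416). Bop1, an assembly factor of the large subunit, rose between SJQYD and model from 11.8 ± 1.3 to 16.9 ± 2.63 CPM (log2 0.52 ± 0.13 SE, edgeR adjusted p = 0.0362). In the SJQYD group, relative to control, Bop1 and Nop56 rose by 0.62 and 0.81 on the log2 scale, and Nop10, Npm1 and Rrs1 fell by 0.82, 0.51 and 0.58. Over both lists, the 2 calls between model and control became 1 without control 1, 2, 4 or 5, model 1, 2 or 5 or SJQYD 3, 4 or 5, and the single call between SJQYD and model became 0 without model 1, 2, 3 or 5 or SJQYD 1, 2, 4 or 5.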

How the data were processed

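RNA of 15 submandibular gland libraries (5 each of control, model and SJQYD) was read from polyadenylated transcripts with a strand-marking kit and molecular identifiers, per the labels' protocols. The authors deposited raw read counts per gene; whether strand and identifiers were used in counting is not given in the sources used here. The deposited FPKM values, per kilobase and library size, were made by the authors from the same libraries. The submitters' processing notes name the build mm9 and, without roles, StringTie 1.3.4d, HISAT2 2.0.4, cutadapt 1.9, UMI-tools, edgeR and DESeq2. Of the 341 members, 325 have the coordinates of GRCm38 (GENCODE M21) in the table, so positions are given in GRCm38.

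Counts were tested with the edgeR 4.0.16 quasi-likelihood F test (R 4.3.3, TMM, filterByExpr, robust, 1 mean per group, all 15 libraries) over 18136 genes, with Benjamini-Hochberg adjusted p under 0.05. Totals of 39510018 to 68694263 counts set the precision, and a floor of 3 counts covers counting error only. Copies of a gene were summed by name, and in an added analysis by sequence (BLAST 2.17.0, at least 90% identity over 80% of the coding sequence). DESeq2 1.42.0, limma 3.58.1 on log2(FPKM + 1) and log2(FPKM + 0.1) for values of at least 0.5 FPKM, other scalings and filters, the omission of each library in turn and a replicate block were alternatives. Scripts were tested on simulated data. No 2 libraries of a group agreed within sampling noise (smallest chi-square per gene 55.6 over 30 pairs).

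The members and gene lists were chosen with earlier results of these data known. Named are called members with at least 2-fold change, up to 10 further called genes in each direction, families whose named copies held at least 5% of the counts in a group mean, the minor paralogs with their main forms, the stalk genes, Rpl26, Rpl30, Rpsa and Rps19bp1. Members outside that rule (Rps24-ps3, Rps18-ps4, Rps18-ps6, Gm8730 and called copies below 2-fold) were chosen after their values were seen. The values of 1 called pseudogene and the sequences of the Rpl30 family are not reported here.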

Additional observations from a re-analysis of the deposited data

Results flagged for a closer look

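Among 177 groups of 5 libraries examined for the members named, 9 held a library whose gap to the nearest other, divided by the range of the group, exceeded Dixon's value of 0.71; chance flags about 1 in 20 groups.

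Rpl36 in model 2 was at 337 CPM, against 272 to 280.4 CPM in the other model libraries (ratio 0.872). Rpl22 in control 2 was at 104 CPM, against 83.1 to 85.5 CPM (0.884), and Rplp1 in control 3 at 374 CPM, against 480.1 to 512 CPM (0.77). Rps27l in model 4 was at 102 CPM, against 62.5 to 68.6 CPM (0.843). Rpl30 in SJQYD 3 was at 31.9 CPM, against 19.6 to 21.7 CPM (0.825).

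Among the copies, Rpl30-ps9 in control 2 was at 1.21 CPM, against 3.67 to 4.66 CPM (0.713). Rpl7a-ps11 in control 1 was at 159 CPM, against 126 to 133 CPM (0.779). Rps19-ps1 in model 1 was at 6.08 CPM, against 3.48 to 4.18 CPM (0.733), and Rps19-ps6 in SJQYD 2 at 127 CPM, against 82.9 to 93.5 CPM (0.762).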

How the results depend on the processing

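Of the 59 called values of named members, all kept their call and direction with DESeq2's size factors or upper-quartile factors in edgeR, 49 without a filter, 50 with the replicate block, 46 of 55 in fits of 2 groups, and 58 of 58 with DESeq2. On the FPKM scale the direction between SJQYD and control reversed for Rpl10-ps3 (0.18 with either pseudocount), Rpl14-ps1 (0.037 and 0.038), Rpl7a-ps11 (0.079), Rps26 (0.12) and Rps3 (0.066 and 0.067). The cause of changes was not tested.

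For ribosomal protein genes between model and control, the count of 5 became 2 at an adjusted p under 0.01 and 13 and 20 on the FPKM scale (pseudocounts 1 and 0.1). These are 2.2%, 14.4% and 22.2%, beside 1.03%, 11.6% and 15.7% of all genes. Between SJQYD and model the count of 1 became 0 at 0.01, 2 with upper-quartile factors or a filter of 1 CPM, 6 with DESeq2, and 0 with the replicate block, without control 2, model 3 and SJQYD 1, and on the FPKM scale. Upper-quartile factors gave 2.2% beside 2.68% of all genes, the filter 2.22% beside 4.27%, and DESeq2 6.59% beside 5.91%. Between SJQYD and control 12 became 4 at 0.01, 19 with DESeq2, and 35 and 38 on the FPKM scale. These are 4.4%, 20.9%, 38.9% and 42.2%, beside 3.66%, 15.6%, 29.2% and 32.5% of all genes.

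For named pseudogenes, 16 became 8 at 0.01, 25 with DESeq2, 9 in the fit of 2 groups, and 43 and 52 on the FPKM scale. These are 4.82%, 15.1%, 5.7%, 28.9% and 34.9%, beside 1.03%, 9.81%, 2.76%, 11.6% and 15.7% of all genes. Between SJQYD and model, 0 became 1 with DESeq2 (0.602%, beside 5.91% of all genes). Between SJQYD and control, 25 became 13 at 0.01, 41 with DESeq2, and 72 and 78 on the FPKM scale. These are 7.83%, 24.7%, 48.3% and 52.3%, beside 3.66%, 15.6%, 29.2% and 32.5% of all genes.

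For families summed by name, the 5 between model and control became 2 at 0.01 and 3 in the fit of 2 groups. The 2 between SJQYD and model became 0 at 0.01 and without the 3 libraries, 6 with DESeq2, and 1 with DESeq2's size factors, no filter, 2 groups or the replicate block. The 11 between SJQYD and control became 3 at 0.01. For families matched by sequence, 4 became 0 at 0.01 and 1 in the fit of 2 groups. Between SJQYD and model, 2 became 0 at 0.01, with the replicate block and without the 3 libraries, 1 with DESeq2's size factors, no filter or 2 groups, and 6 with DESeq2. Between SJQYD and control, 9 became 1 at 0.01 and 16 with DESeq2.

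For translation and assembly genes, 2 between model and control became 1 at 0.01, without a filter, with 2 groups, with the replicate block and with FPKM + 1, and 4 with DESeq2. Between SJQYD and model, 1 became 2 with DESeq2 and 0 at 0.01, without a filter, with 2 groups, the block, without the 3 libraries and on the FPKM scale. Between SJQYD and control, 9 became 4 at 0.01 and 15 with FPKM + 0.1. Copies held at least 5% in 31 families by counts and in 39 by FPKM.

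Leaving out each library in turn gave, in the order of the comparisons above, 3 to 7, 0 to 2 and 7 to 15 ribosomal protein genes, 8 to 23, 0 to 1 and 20 to 39 pseudogenes, 2 to 6, 0 to 2 and 6 to 13 named families, 0 to 4, 0 to 2 and 3 to 9 matched families, and 1 to 2, 0 to 1 and 6 to 9 translation genes. Of all single genes, 1.92 to 9.71%, 1.8 to 2.84% and 6.67 to 14.2% were called in these fits. Libraries with the same number did not deviate together (correlations of -0.226 to 0.16 over 15 pairs, against -0.282 to 0.326 over 60 others; 1 library correlated best with its own number), so the replicate block is not a paired analysis.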
